A study of Homo sapiens with 18 samples.

Results

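The genes described here are the ERBB receptors and the ligands of the epidermal growth factor (EGF) family that were named for this work, 10 in all, of 19401 genes listed in at least 1 of the series' 3 tables. They are 3 receptors, EGFR, ERBB2 and ERBB3, and 7 ligands, AREG, EREG, HBEGF, TGFA, BTC, EPGN and NRG1, found by their gene symbol and joined across tables by Entrez identifier. The rule that selects them uses names and no measured value, but the list was drawn up with earlier results of these data known. All 10 were listed in both RUNX1 tables, and 9 in the CBFB table, where HBEGF had no row.

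Gene expression was measured by RNA-seq in MCF10A, an immortalized line of human breast epithelium that does not form tumors when unedited. The study's paper reports that its CBFB KO and RUNX1 KO cells did form tumors in immunocompromised mice. Of the 18 libraries, 3 came from CBFB knockout (KO) cells and 3 from their own wild type (WT). The others were 4 from each of 2 RUNX1 KO clones, called KO1 and KO2, and 4 from the WT used for both clones. RUNX1 is a transcription factor, and CBFB binds RUNX proteins and strengthens their hold on DNA without touching DNA itself. The knockouts were made with CRISPR-Cas9. CBFB KO was 1 clone by the series' design, so features of that clone and of the knockout cannot be told apart. No group received a treatment, but every group was grown in medium with 5% horse serum, cholera toxin at 100 ng/ml, hydrocortisone at 500 ng/ml, insulin at 10 µg/ml and, of most bearing here, EGF at 20 ng/ml. The receptor EGFR was therefore supplied with an added ligand in KO and WT cells alike.

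EGF family ligands are made as membrane-anchored precursors, which proteases of the ADAM family release from the cell surface. EGFR binds AREG, EREG, HBEGF, TGFA, BTC, EPGN and EGF itself, while ERBB3 and ERBB4 bind the neuregulins such as NRG1. ERBB2 has no known ligand and acts as the preferred partner of the other receptors, and ERBB3 has a weak kinase and signals through that partner. In mammary tissue AREG is the family ligand best known for its part in ductal growth, and cultured mammary epithelial cells make several of these ligands themselves.

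Each table gives 1 level per gene, the authors' mean of the normalized read counts over the KO and WT libraries together. No level of a single library or of a single group was used here. The values below therefore have no SD, no KO was tested against its WT, and the spread between samples cannot be set against any difference. The tables pooled 6, 8 and 8 libraries for CBFB, KO1 and KO2. They listed 18526, 18517 and 18117 genes, with summed mean counts of 20214423, 18050386 and 16467400. Genes with 1 read in 1 library take a fixed mean that gives that library's size factor, the number its counts were divided by. The lowest and highest size factor were 0.657 and 1.18 for CBFB, 0.921 and 1.10 for KO1, and 0.562 and 1.29 for KO2. Depth thus differed most among the libraries of the KO2 table. Of the 336 genes with such a 1-read mean in both RUNX1 tables, 265 fell in 4 pairs of libraries, 4 distinct ones in each table, with 58 to 72 genes a pair and 9 in the next pair. This is the pattern of 4 libraries that both tables hold.

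The cells were checked against marker lists. All 8 basal mammary markers were listed in the CBFB and KO1 tables and 7 of 8 in the KO2 table, each listed one at a mean of at least 10, led by KRT5, a basal keratin, at 87894, 101688 and 95221. Of 8 luminal markers 5 reached a mean of 10 in each table, led by KRT18, while KRT19 stood at 0.48, 1.99 and 2.05 and PGR was not listed. Of 7 fibroblast and 5 leukocyte markers, 2 each reached a mean of 10, led by PDGFRA and CD68, and COL1A2 and PTPRC were below 1 or not listed. None of 4 endothelial markers reached it. The targeted genes were not a check of the labels, since a pooled mean mixes KO with WT. The mean for CBFB was 897 in the CBFB table, against 1058 and 931 in the RUNX1 tables, and that for RUNX1 was 1606 against 922 and 839.

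EPGN, EREG and AREG are successive genes on chromosome 4 in the RefSeq annotation, and BTC is the next protein-coding gene after them. The 100 bases before the start of each are shown because these ligands sit side by side yet had very different levels. They are from RefSeq (GRCh38.p14), read on the strand of the gene, with the TATA box letters TATAAA in capitals. The windows lie at chr4:74308370-74308469 (EPGN), chr4:74365045-74365144 (EREG) and chr4:74445036-74445135 (AREG) on the plus strand, and at chr4:74794524-74794623 (BTC) on the minus strand.
EPGN: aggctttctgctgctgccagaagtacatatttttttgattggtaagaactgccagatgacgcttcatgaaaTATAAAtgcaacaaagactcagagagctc
EREG: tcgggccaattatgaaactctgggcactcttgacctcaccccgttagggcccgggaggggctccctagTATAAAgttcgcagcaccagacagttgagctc
AREG: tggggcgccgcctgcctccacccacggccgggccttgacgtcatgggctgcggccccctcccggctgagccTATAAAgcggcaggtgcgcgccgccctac
BTC: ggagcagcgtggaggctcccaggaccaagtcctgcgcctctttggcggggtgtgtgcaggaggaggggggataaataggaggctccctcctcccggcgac

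The letters TATAAA began 29 bases before the start in EPGN and AREG (position -29) and 32 bases before it in EREG (-32). Among all 35116 promoter windows of the same length, 2.17% held TATAAA on the gene strand with its first base between -35 and -25, around the usual place of a TATA box. This range was chosen after the positions in the members were seen. Of the 10 windows matched for 8 members (TGFA and EGFR had 2 starts each, ERBB3 and NRG1 were not matched), 3 did so, and all 3 are this run of neighbours. The window of 1 EGFR start also held TATAAA, at -146 and -36, outside that range. Only these exact letters were counted. The BTC stretch lacks them but holds the similar letters ATAAATA, with their first base between -35 and -25. The base composition differed among the 4 stretches, with G or C at 40.0% of the bases in EPGN, 57.0% in EREG, 75.0% in AREG and 67.0% in BTC. The 3 neighbours with TATAAA thus ranged widely in GC content.

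The same windows, 250 bases before to 50 after each start, were searched for letters bound by RUNX factors. TGTGGT was found on neither strand in any of the 10 member windows, against 13.1% of all windows. TGCGGT, its close variant, was found on the opposite strand of 1 TGFA start, against 7.29% of all windows. A window of EGFR held TGAGTCA, the AP-1 motif, on both strands, at -232 and -136, against 4.95% of all windows. These are matches of letters and not binding sites, and RUNX factors also bind far from starts.

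Every listed member reached a mean of at least 10, that is 9 of 9 in the CBFB table and 10 of 10 in each RUNX1 table. Among all listed genes 74.0%, 73.6% and 73.0% did so. Only BTC was below 100. Values are given below in the order CBFB table, KO1 table, KO2 table, as mean normalized counts unless said otherwise. The tables were normalized separately, so a gene's values can be set against each other across tables only after the scaling described further on.

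AREG, amphiregulin, had the highest mean of the 10 genes, at 5749, 7369 and 6765. It stood at percentile 96.9, 98.1 and 98.3 of the genes listed in each table. AREG has had a near-identical annotated copy, AREGB, which was not listed in any of the tables, so reads of the copy may be missing from the value or included in it. EPGN, epigen, a low-affinity EGFR ligand, followed in the RUNX1 tables, at 1571, 2169 and 2182. TGFA, transforming growth factor alpha, a soluble EGFR ligand made by many epithelia, had means of 1651, 1216 and 981.

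HBEGF, heparin-binding EGF, which binds EGFR and ERBB4, had means of 799.6 and 709 in the RUNX1 tables. It had no row in the CBFB table, so its level there is not known, and the reason for the missing row was not tested. KRT14 and HRAS, at 9515 and 1763 in the KO1 table, likewise had no row in the KO2 table. EREG, epiregulin, a ligand of EGFR and ERBB4, had means of 535, 235 and 180. NRG1, neuregulin 1, the ligand of ERBB3 and ERBB4, had means of 324, 152 and 131. EREG and NRG1 were both higher in the CBFB table than in either RUNX1 table.

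BTC, betacellulin, which binds EGFR and ERBB4, was the lowest member. Its means were 23.2 (95% counting interval 19.5 to 27.4), 30.7 (26.9 to 34.7) and 27.5 (24.0 to 31.4). They came from 139, 245 and 220 normalized counts summed over the pooled libraries. These exact Poisson intervals take the mean times the number of libraries as reads and cover counting error only.

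Of the receptors, EGFR had means of 3588, 1459 and 1184. ERBB2 had means of 1620, 1775 and 1750, and ERBB3 of 378, 424 and 456. EGFR was the highest receptor in the CBFB table and ERBB2 in both RUNX1 tables. EGFR overlaps an antisense gene, EGFR-AS1, at 203, 69.9 and 59.2, which was also higher in the CBFB table. Whether the counting used strand is not given in the sources used here, so reads of EGFR and EGFR-AS1 may not have been told apart.

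**Figure D1:**
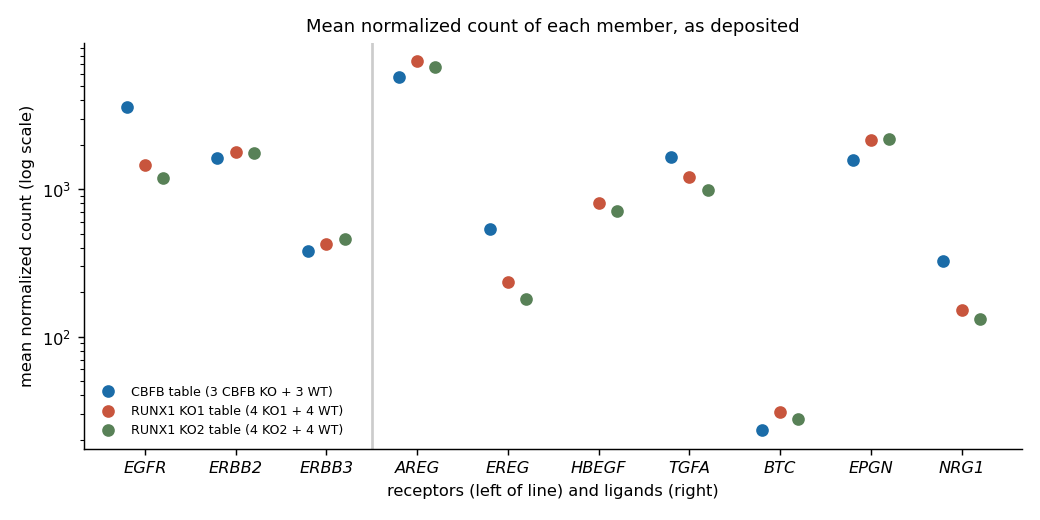
Mean normalized count (log axis) of each of the 10 genes, with 1 point for each table that lists it and receptors left of the line. AREG had the highest point of every table, from 5749 to 7369, BTC the lowest, from 23.2 to 30.7, and HBEGF has no point for the CBFB table.

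Levels of different genes were compared per kilobase (kb) of the longest transcript in GENCODE, since a long transcript gives more reads per molecule. On this scale AREG was at 4636, 5942 and 5456 normalized counts per kb, at percentile 98.8 or above among genes with a length in each table. EPGN was at 1314, 1813 and 1825 per kb. AREG was 3.53-fold, 3.28-fold and 2.99-fold above EPGN.

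The summed level of the listed ligands was 6512, 8460 and 7876 per kb, and AREG made up 71.2%, 70.2% and 69.3% of it. EPGN added 20.2%, 21.4% and 23.2%. TGFA gave 5.88%, 3.33% and 2.89%, and HBEGF, in the RUNX1 tables, 3.96% and 3.77%. EREG made up 1.78%, 0.60% and 0.49%, NRG1 0.84%, 0.30% and 0.28%, and BTC 0.13%, 0.13% and 0.12%. The sum in the CBFB table lacks HBEGF. The neighbours EPGN, EREG, AREG and BTC thus held both the highest and the lowest ligand.

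These shares depend on the length used, because several ligands have long transcripts around a short coding sequence. The transcript used for EREG was 4619 bases long with a coding sequence of 507 bases, that of TGFA 4310 with 498, and that of AREG 1240 with 822. Per kb of coding length AREG made up 46.8%, 49.9% and 49.8% of the ligands, EPGN 22.7%, 26.1% and 28.6%, and TGFA 22.2%, 13.6% and 11.9%. AREG was first and EPGN the next by either length in all tables. Under both lengths NRG1 and BTC were the lowest ligands, at 1.01% or less each.

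Among the receptors, EGFR was at 365, 149 and 121 per kb of transcript, ERBB2 at 329, 360 and 355, and ERBB3 at 63.9, 71.7 and 77.1. EGFR was 1.11-fold ERBB2 in the CBFB table, and 0.413-fold and 0.339-fold in the RUNX1 tables. Per kb of coding length these ratios were 2.30, 0.852 and 0.701. By either length EGFR was thus above ERBB2 in the CBFB table and below it in both RUNX1 tables. These levels were not corrected for the trend on transcript length and GC content described below. With it removed, the CBFB over KO1 ratio was 1.65 in place of 2.10 for EGFR, and 0.806 in place of 0.778 for ERBB2. Whether EGFR stays above ERBB2 in the CBFB table without that trend was not tested. ERBB2 was 4.61-fold to 5.14-fold above ERBB3 per kb of transcript. ERBB3, the receptor of NRG1, was in each table the lowest of the 3 receptors.

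**Figure D2:**
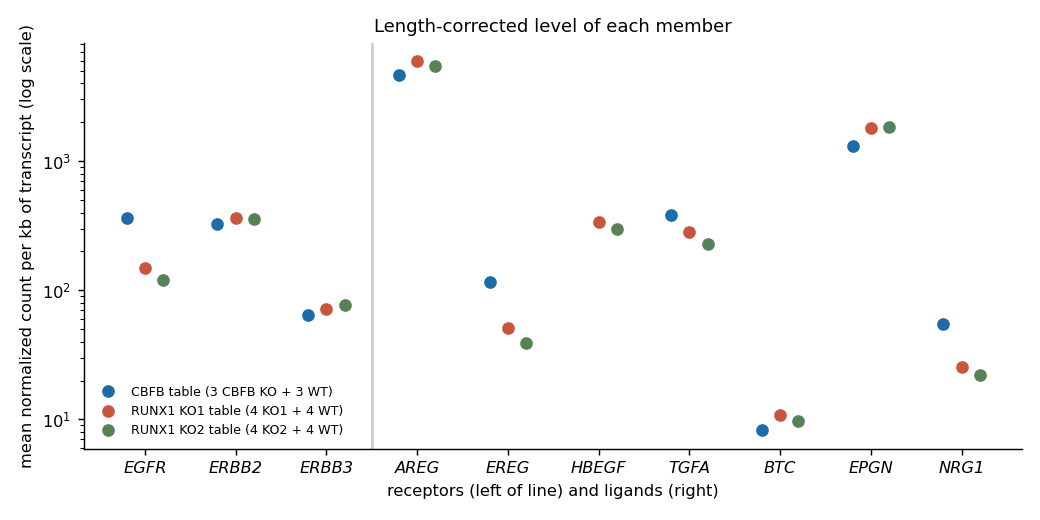
Mean normalized count per kb of the longest annotated transcript (log axis) for each gene and table, with receptors left of the line. AREG, at 4636 to 5942, and EPGN, at 1314 to 1825, stood above all other members in each table, and BTC was the lowest, at 8.23 to 10.9.

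The ratio of a gene's means between tables was scaled by the median ratio over genes with means of 100 or more in each of the pair. That median was 1.07 for the KO1 over the KO2 table, 1.17 for CBFB over KO1 and 1.27 for CBFB over KO2. Ratios were described for genes with means of 10 or more in each, and a gene was counted when its scaled ratio was at least 1.5-fold higher or lower. No test was possible. The CBFB table has its own WT libraries, so that the experiment, the cells and the knockout cannot be told apart in its ratios.

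The RUNX1 tables share their WT libraries and differ in the clone. None of the 10 members differed by 1.5-fold between the KO1 and KO2 tables, where 0.968% of 13123 genes did. With so low a share of all genes, this does not set the members apart. Both means include the shared WT libraries, so a difference between the clones is diluted in this ratio. EREG had the highest ratio of the members, 1.21, at percentile 98.1 of all genes, followed by TGFA at 1.15 and EGFR at 1.15. ERBB3 had the lowest, 0.866, at percentile 15.5. AREG was at 1.01, BTC at 1.04, HBEGF at 1.05, NRG1 at 1.08, ERBB2 at 0.944 and EPGN at 0.925.

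Since each of these tables averages 4 clone and 4 WT libraries, a difference between the clones is 2 times that between the scaled means, if the shared WT has the same scaled level in both. On the scale of the KO2 table, the mean over clone KO1 minus that over clone KO2 then comes to 348 normalized counts for EGFR, 300.3 for TGFA and 77.0 for EREG. It comes to -328 for EPGN, -196 for ERBB2 and -123 for ERBB3. These values have no error and depend on the scaling. With the values as deposited the ratio of KO1 over KO2 was 1.01 for ERBB2, on the other side of 1, and 0.994 for EPGN. With the trend on transcript length and GC content described below removed, that of EGFR was 1.08 in place of 1.15.

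In the CBFB table over the KO1 table, EGFR at 2.10, EREG at 1.94 and NRG1 at 1.82 were at least 1.5-fold higher, 3 of 9 members against 8.6% of 13370 genes. EPGN at 0.618, BTC at 0.645 and AREG at 0.665 were at least 1.5-fold lower, 3 of 9 against 7.1%. AREG was just past the limit, and BTC rests on low counts. With a minimum mean of 100, which leaves out BTC, 3 of 8 were higher and 2 lower. Among all genes 10.9% were then past the fold in either direction. With the values as deposited, unscaled, 3 were higher and 0 lower, against 22.9% of all genes past the fold in either direction. ERBB2 was at 0.778, ERBB3 at 0.761 and TGFA at 1.16. The 3 higher members stood at percentile 98.4, 97.6 and 96.7 of all genes.

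In the CBFB table over the KO2 table the higher members were again EGFR at 2.39, EREG at 2.34 and NRG1 at 1.94, 3 of 9 against 12.2% of 12956 genes. The lower ones were EPGN at 0.567, ERBB3 at 0.653 and BTC at 0.662, 3 of 9 against 14%. ERBB3 and BTC were just past the limit, and BTC rests on low counts. With a minimum mean of 100, which leaves out BTC, 3 of 8 were higher and 2 lower. Among all genes 21.8% were then past the fold in either direction. With the values as deposited 4 of 9 were higher and 0 lower, against 36.7% of all genes past the fold in either direction. AREG, at 0.669, came just short of the limit, ERBB2 was at 0.728 and TGFA at 1.32. Both CBFB comparisons share the CBFB table, and the RUNX1 tables share their WT, so that they are not independent. Neighbouring genes went apart, with EREG higher and EPGN, AREG and BTC at lower ratios.

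Some cell type markers also differed between these tables. Basal markers had 1 of 8 genes higher and 2 lower for CBFB over KO1, against 8.6% and 7.1% of all genes. For CBFB over KO2 they had 2 of 7 higher and 1 lower, against 12.2% and 14%. The lower ones were KRT17, at 0.187 and 0.121, and KRT14, compared with KO1 alone, at 0.369. The higher ones were ITGA6 in both comparisons and TP63 for CBFB over KO2. Before scaling, ITGA6 had means of 22347, 12515 and 9288, and TP63 of 1606, 953 and 730. Luminal markers had 1 of 5 lower for CBFB over KO1 and 3 of 5 for CBFB over KO2, against 7.1% and 14% of all genes. Their median ratios were 0.904 and 0.639. KRT8, a luminal keratin, was at 0.607 and 0.437. For KO1 over KO2, 1 of 7 basal markers was lower, KRT17 at 0.652, against 0.968% of all genes past 1.5-fold in either direction. KRT17, KRT14, ITGA6, TP63 and KRT8 are named after their values were seen. The part of such differences between the cells in the ratios of EGFR, EREG and NRG1 was not tested.

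**Figure D3:**
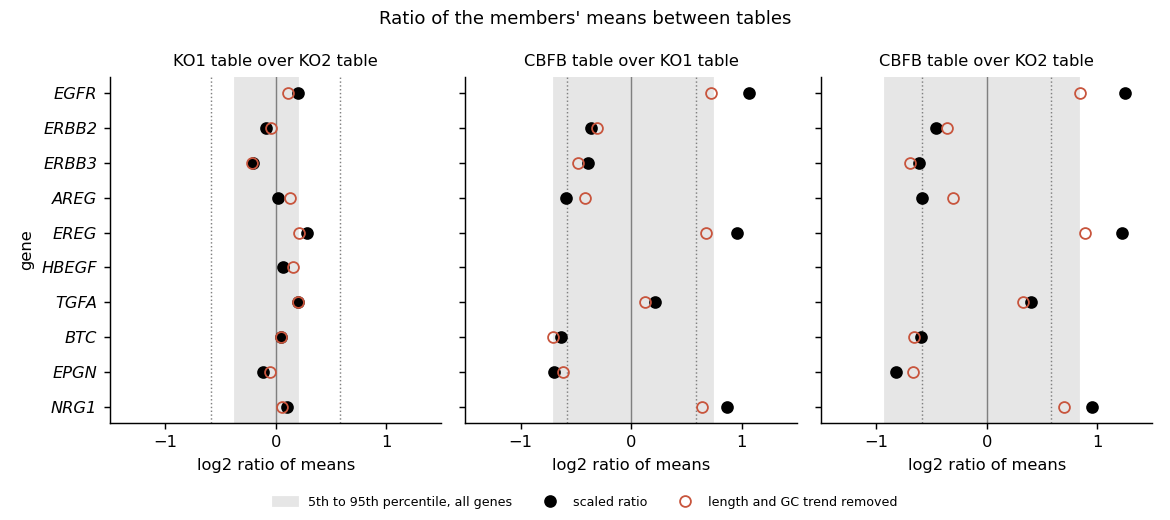
Log2 ratio of the scaled means between each pair of tables for the members (filled points), and after the trend on transcript length and GC content was removed (open points). The grey band holds the 5th to 95th percentile of all genes at a mean of at least 10, and dotted lines mark 1.5-fold. EGFR, EREG and NRG1 were to the right of the dotted line in both CBFB panels, and no member was past it for KO1 over KO2.

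The ratios moved with the length and the GC content of the transcript across all genes. Over 10446 genes at a mean of at least 100, the log2 ratio of CBFB over KO1 had a Pearson correlation of 0.50 with log2 length and -0.47 with GC content. The correlations were 0.52 and -0.47 for CBFB over KO2 and 0.49 and -0.41 for KO1 over KO2. These are across genes, which are not independent replicates and share their libraries. The longest member transcript was that of EGFR, 9821 bases, and the shortest were those of EPGN, 1196, and AREG, 1240, against a median of 3741. EREG had the lowest GC content of the members, 36.1%, against a median of 48.0%.

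With the trend removed, EGFR had a ratio of 1.65 for CBFB over KO1 and 1.80 for CBFB over KO2, EREG 1.60 and 1.85, and NRG1 1.56 and 1.63. These 3 genes stayed above 1.5-fold in both. In either direction, 5 of 9 members were then past 1.5-fold for CBFB over KO1, against 10.8% of all genes. For CBFB over KO2 it was 6 of 9, against 15.6%. EPGN had 0.654 and 0.628, BTC 0.613 and 0.635, ERBB3 0.715 and 0.617, and AREG 0.751 and 0.812. AREG was therefore within 1.5-fold in both after the correction. The published methods name rRNA removal and the sample labels an mRNA kit, so how each library was prepared is not clear. The part of RNA quality or of library preparation in these ratios was not tested.

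**Figure D4:**
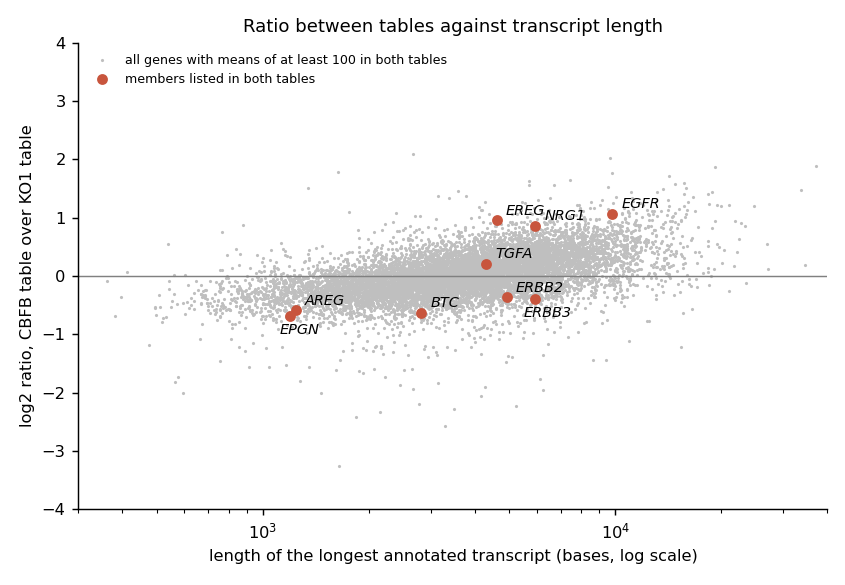
Log2 ratio of the CBFB over the KO1 table against the length of the longest annotated transcript (log axis), for all genes with means of 100 or more in each (grey) and the 9 members listed in both (labelled). The grey cloud rises with length, EGFR, EREG and NRG1 lie near its upper edge, and BTC, ERBB2 and ERBB3 lie in its lower part.

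Other genes of the pathway were described from lists drawn up the same way. Of 5 further genes of the family, EGF, ERBB4 and NRG2 were below a mean of 10 in every table, and NRG3 was not listed. EGF had means of 4.35, 2.99 and 2.41, and ERBB4, the remaining receptor, 3.38, 2.59 and 3.61. NRG2 was at 5.41, 5.45 and 6.64. NRG4, an ERBB4 ligand, was the exception, at 39.6, 17.3 and 17.8, with ratios of 1.96 for CBFB over KO1 and 1.75 for CBFB over KO2. The EGF that these cells received came with the medium, while EGF transcripts amounted to 26, 24 and 19 normalized counts summed over the pooled libraries.

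All 4 genes of ligand shedding reached a mean of 10 in every table. ADAM10, a membrane protease, was the highest, at 1611, 1031 and 862, and RHBDF1, an inactive rhomboid protein that acts with ADAM17, the lowest, at 379, 332 and 317. None of the 4 was past 1.5-fold between any tables. Among all genes 0.968% were past it for KO1 over KO2, 15.7% for CBFB over KO1 and 26.2% for CBFB over KO2. With only 4 genes, this does not set them apart.

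Of 17 adaptor and signaling genes, every one listed reached a mean of 10. SHC1, an adaptor that binds the activated receptors, was the highest, at 13074, 9742 and 9308, and BRAF, a RAF kinase, the lowest, at 139, 87.3 and 75.8. For CBFB over KO1, 2 of 17 were at least 1.5-fold higher and 0 lower, against 8.6% and 7.1% of all genes, with a median ratio of 1.16 against 0.999 over all genes. They were CBL at 2.42 and NRAS at 1.52, named after their values were seen. CBL, the ubiquitin ligase that directs EGFR to degradation, stood at percentile 99.2 of all genes, and with the trend on length and GC removed it was at 1.81. NRAS, a GTPase downstream of the receptors, was then at 1.29. For CBFB over KO2, both were higher, 2 of 16 against 12.2% of all genes, and 1 of 16 was lower, against 14%. The lower one was MAP2K2 at 0.540, a kinase upstream of ERK, named after its value was seen. With the trend removed MAP2K2 was at 0.691, within 1.5-fold.

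All 7 inhibitors and feedback genes were above a mean of 10. SOCS3 was the lowest, at 30.7, 29.3 and 25.3. DUSP6, a phosphatase of ERK, was the highest in the CBFB table, at 2147, and ERRFI1, an inhibitor of EGFR kinase, in the RUNX1 tables, at 1226 and 1159. For CBFB over KO1, 2 of 7 were at least 1.5-fold higher and 0 lower, against 8.6% and 7.1% of all genes. These were DUSP6 at 1.58 and SPRY4, a Sprouty inhibitor, at 1.63. SPRY4 is named after its value was seen. With the trend on length and GC removed they were at 1.49 and 1.54, so that DUSP6 was no longer past 1.5-fold. For CBFB over KO2 both were again past 1.5-fold, DUSP6 at 1.70 and SPRY4 at 1.91, 2 of 7 against 12.2% of all genes. The median ratio was 1.29 over the 7 genes against 0.997 over all genes.

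The 9 immediate early and ERK-induced genes were all above a mean of 100, led by MYC at 7954, 6758 and 6350, with FOS the lowest at 413, 308 and 288. For CBFB over KO1, 1 of 9 was at least 1.5-fold higher, close to the 8.6% of all genes. It was PHLDA1 at 1.63 (1.31 with the trend removed), named after its value was seen. None was lower, and the median ratio was 1.14. For CBFB over KO2, 1 of 9 was higher, PHLDA1 at 1.78, against 12.2% of all genes. The median ratio was 1.12. Over all genes the median ratios were 0.999 and 0.997. MYC, the highest of the 9 by level, stood at percentile 50.6 and 48.8 of all genes in these comparisons. Its ratios were thus below the medians of its list.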

How the data were processed

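Gene expression was measured by RNA-seq of 18 MCF10A libraries. The submitters' processing notes name Trimmomatic, STAR and DESeq2 and the build hg19, with no versions. The authors deposited 1 table for each knockout against its WT, and its mean normalized count (a signal pooled over KO and WT libraries, divided by size factors) was the only measurement used. The remaining columns hold the authors' own comparisons (log2 fold change, its error, a test statistic and p-values) and were not used, so no test was run and no DESeq2 result is given. Columns of single libraries with no sample: 0. Whether replicates came from separate cultures is not given in the sources used here.

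Members were joined by Entrez identifier with pandas 2.3.3 (Python 3.11.15). Ratios between tables were scaled by the median ratio over genes at a mean of at least 100, kept at a mean of at least 10, and counted past 1.5-fold. Transcript length, GC content and coding length came from GENCODE release 29 (GRCh38). The trend was a least squares fit of the log2 ratio on log2 length and GC content with squares and a cross term, and the scaling and trend were tested on simulated data. Counting intervals are exact Poisson at 95% (scipy 1.17.1). All 10 members, further family genes, the highest and lowest gene of each pathway role, the highest marker of each list and the targeted genes are named. The members and lists were chosen with earlier results of these data known. A few other genes are marked where named, or show rows that are missing or near 0. Of the pathway lists, a single gene is not reported here.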

Additional observations from a re-analysis of the deposited data

How the results depend on the processing

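No paired analysis was possible because the levels used pool KO and WT libraries, and leaving out a replicate was not possible for the same reason. The number of members detected stayed within 1.5 times under minimum means of 1 and 100, and no member was past any fold tried for KO1 over KO2, against 8.21% of all genes at the lowest. For CBFB over KO1, 6 members past the fold became 3 with the values as deposited (against 22.9% of all genes) and 1 at a fold of 2, which was EGFR (against 4.64%). For CBFB over KO2, 6 became 2 at a fold of 2 (against 6.79%). With the values as deposited no member was past 1.5-fold lower in either, so the lower calls of AREG, BTC, EPGN and ERBB3 depend on the scaling. Scaled by the tables' sums, 4 members were past the fold in each, against 16.7% of all genes for CBFB over KO1 and 26.0% for CBFB over KO2. For KO1 over KO2 the ratio of ERBB2 turned from 0.944 to 1.01 with the values as deposited. No member past the fold changed direction under the scalings or the trend correction, the latter and the coding length being chosen after seeing the data. AREG's share of the ligands in the CBFB, KO1 and KO2 tables was 46.8%, 49.9% and 49.8% by coding length and 58.3%, 61.6% and 61.6% with no length. With only ligands of all tables it was 73.1% and 72.0% in the KO1 and KO2 tables. Of 9 members, 4 kept their KO1 rank per kb in the CBFB table, 9 in the KO2 table and 4 by coding length. The cause of these shifts was not tested beyond their construction. Giving levels as shares of a table's sum leaves its order as it is.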
